A study of Rattus norvegicus with 6 samples.

Results

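Valine tRNA 5' fragments are short RNAs that begin at the 5' end of a nuclear-encoded tRNA carrying valine. A distinct sequence was taken as one of them when it matched a mature nuclear tRNA of the anticodon Val-AAC, Val-CAC or Val-TAC with no mismatch, began at position 1, 2 or 3 of that tRNA, and matched no mature tRNA outside the valine family. The rule gave 96 of the 77567 distinct sequences in the table, and 96 of the 1246 exact 5' sequences over all mature nuclear tRNAs. Of these, 36 matched both Val-AAC and Val-CAC tRNAs, 24 matched Val-TAC alone, 21 matched Val-CAC alone and 15 matched Val-AAC alone. They were 14 to 39 nt long. A further 27 exact valine 5' sequences also matched alanine tRNAs and were left out, with 375 reads in the experimental libraries and 142 in the control libraries.

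The libraries were small RNA libraries of muscle from Lewis rats 6 to 8 weeks old, 3 titled as experimental and 3 titled as control. The series title names acute rejection of composite tissue transplants, but the labels do not say what was done to the experimental animals. The design text speaks of mouse skin under ultraviolet light, and a skin phenotype is recorded for each sample, so the groups rest on the sample titles alone. The labels leave unsaid whether libraries with the same title come from different rats, so each p-value reflects how far these libraries vary, and that variation may be technical. Depth was 876494, 1927269 and 1866227 tRNA-aligned reads in experimental libraries 1 to 3, against 550004, 740627 and 316990 in control libraries 1 to 3. Muscle markers could not be examined in a table of tRNA reads.

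A tRNA brings its amino acid to the ribosome and reads the codon with its anticodon. Cells cut tRNAs into fragments: angiogenin, an RNase best known from stressed cells, cuts in the anticodon loop and leaves a 5' piece called tiRNA-5. Shorter 5' pieces, which end nearer the 5' end, are called tRF-5. Cutting was not assayed here, and a fragment end is only the place where a sequenced read stopped. The first anticodon base of tRNA-Val-AAC is normally converted to inosine, which sequencing reads as G.

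The 5' stretches of the valine tRNAs are shown because their few differences decide which fragment can be assigned to which tRNA. Each runs from position 1 to the last anticodon base, position 36, and the anticodon is in capitals.
Val-CAC-1: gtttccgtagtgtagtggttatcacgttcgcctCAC
Val-CAC-3: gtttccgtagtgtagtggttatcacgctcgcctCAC
Val-AAC-1: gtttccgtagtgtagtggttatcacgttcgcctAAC
Val-AAC-2: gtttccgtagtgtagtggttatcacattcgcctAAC
Val-TAC-1: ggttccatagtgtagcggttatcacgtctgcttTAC

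Positions are counted from 1 at the 5' end of the tRNA, and a substitution gives the Val-CAC-1 base first. Val-AAC-1 differs from Val-CAC-1 in this stretch by C34A alone, at the first anticodon base. Val-CAC-3 differs by T27C, and Val-AAC-2 by G26A and C34A. Val-TAC-1 has 7 differences, so even its short fragments can be told apart. A fragment of Val-CAC-1 or Val-AAC-1 that ends before position 34 therefore belongs to both, and only one that reaches position 34 can be assigned to an anticodon.

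The coordinates are those of the deposited table, counted from 1, for which no build or strand is given. Val-CAC-1 is at chr2:198491452-198491524 and had 3 precursor entries. Val-CAC-2 is at chr17:43923864-43923936 and has the same 5' stretch as Val-CAC-1. Val-CAC-3 is at chr17:43963165-43963237, Val-AAC-1 is at chr2:116415357-116415429 with 4 precursor entries, and Val-AAC-2 is at chr17:44549229-44549301. Val-TAC-1 is at chr1:228445276-228445348 with 2 precursor entries. All are tRNA genes, and each mature sequence carries 3 added 3' bases outside these positions.

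Valine 5' fragments took a larger share of the tRNA reads in each experimental library than in any control library. They had 3952, 2803 and 2760 reads in the experimental libraries and 476, 190 and 138 in the control libraries. As a share of tRNA-aligned reads this was 0.451%, 0.145% and 0.148% in the experimental libraries, against 0.0865%, 0.0257% and 0.0435% in the control libraries. The groups did not overlap, although experimental library 1 stood well above the other experimental libraries. The mean share was 0.248% ± 0.176 in experimental and 0.0519% ± 0.0313 in control libraries (SD, n = 3 each), 4.78-fold higher in experimental. The difference of 0.196 percentage points had p = 0.1 in a two-sided exact permutation test, which is the smallest p that 3 libraries against 3 can give. Without experimental library 1 the difference was 0.0948 percentage points and the fold 2.83, and without control library 1 the fold was 7.17.

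The counting error of these shares was small beside the spread between libraries. The 95% Wilson interval was 0.437% to 0.465% in experimental library 1 and 0.0369% to 0.0514% in control library 3, the shallowest. Intervals and floors of this kind describe counting alone, because several reads can be PCR copies of 1 molecule. Glycine 5' fragments held 46.0% to 56.3% of the tRNA reads in experimental libraries and 52.5% to 59.4% in control libraries, so the valine share was also taken of the mature nuclear tRNA reads without glycine. It was then 2.36%, 0.810% and 1.59% in experimental and 0.721%, 0.413% and 0.558% in control libraries, 2.81-fold higher in experimental (two-sided exact permutation p = 0.1). The direction and the separation of the groups were the same on both scales.

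**Figure D1:**
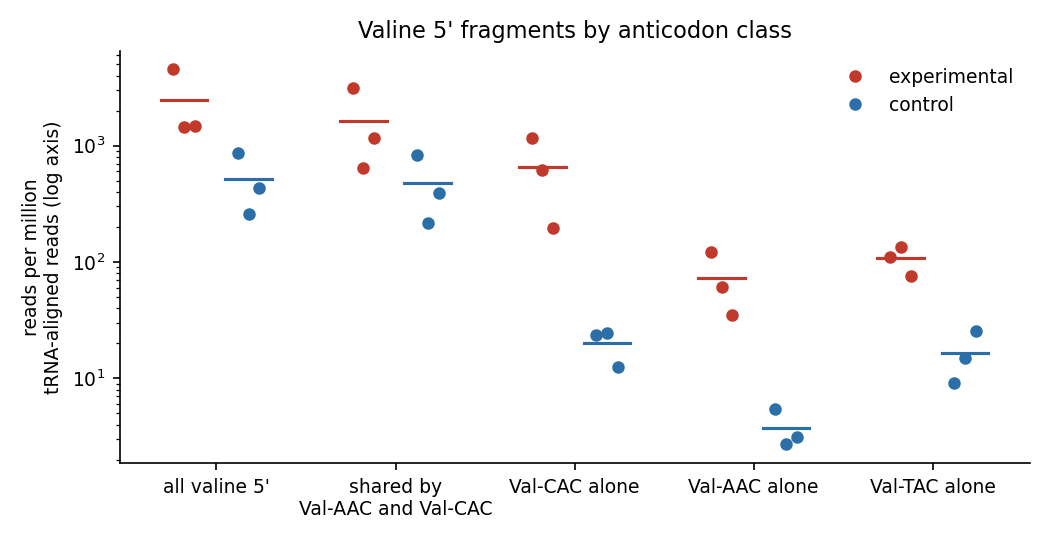
Reads scaled to 1000000 tRNA-aligned reads per library (RPM, log axis) of all valine 5' fragments and of each anticodon class, with 1 point per library and a bar at the group mean. The 3 experimental libraries lie above the 3 control libraries for all valine 5' fragments and for the classes of Val-CAC, Val-AAC and Val-TAC alone, while the class shared by Val-AAC and Val-CAC overlaps.

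Fragments assignable to Val-CAC alone differed most among the anticodon classes, by share. They had 1021, 1183 and 364 reads in experimental libraries and 13, 18 and 4 in control libraries. Their mean share of tRNA reads was 32.6-fold higher in experimental libraries. With so few control reads the ratio of the pooled shares was 25.3, with a 95% counting interval of 18.1 to 36.3. Val-AAC alone had 107, 118 and 65 reads in experimental libraries and 3, 2 and 1 in control libraries, a pooled ratio of 16.6 with an interval of 7.55 to 45.7. Of the 290 experimental reads of Val-AAC alone, 166 were of 1 sequence assigned by its last base alone. Whether that base comes from the tRNA was not tested. Val-TAC alone had 97, 260 and 142 reads in experimental libraries and 5, 11 and 8 in control libraries, a pooled ratio of 7.16 with an interval of 4.75 to 11.3. Without experimental library 1 the fold of mean shares was 20.04 for Val-CAC and 12.7 for Val-AAC. The groups did not overlap in share for any of these 3 classes. On this scale of shares, though, separation with experimental higher was common: it held for 55.2% of the 29 anticodon sums of 5' fragments with enough reads to be tested, and separation with experimental lower for 3.45%. After TMM scaling, which corrects for library composition, the same 3 valine classes were apart, against 20.7% of the sums with experimental higher and 10.3% with experimental lower.

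The shared class held the largest part of the valine 5' reads in each library, and its groups overlapped in share. It had 2727, 1242 and 2189 reads in experimental libraries and 455, 159 and 125 in control libraries, a mean share 3.43-fold higher in experimental. The fold was 1.90 without experimental library 1 and 5.40 without control library 1. Control library 1 lay above experimental library 2 in share, and the exact permutation test gave p = 0.2 (two-sided). Of all valine 5' reads, the shared class made up 69.0%, 44.3% and 79.3% in experimental libraries and 95.6%, 83.7% and 90.6% in control libraries. Val-CAC alone made up 25.8%, 42.2% and 13.2% in experimental libraries and 2.73%, 9.47% and 2.90% in control libraries. Both shares separated the groups, and both follow in part from how far the fragments ran, since a fragment must reach position 34 to leave the shared class unless it carries an earlier difference.

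The same sums were tested with limma voom, which fits log2 CPM (counts scaled to 1000000 reads per library) corrected by TMM factors, beside the 5' sums of every other anticodon class. Of 29 sums tested, 13.8% were called higher and 6.9% lower in experimental libraries at an adjusted p under 0.05 (Benjamini-Hochberg). Of the 4 valine sums, 2 were called higher and 0 lower, and 17 of 29 sums were called higher when library totals replaced the TMM factors. Val-CAC alone had a log2 fold change of 3.36 ± 0.65 (SE) and an adjusted p of 0.00278. Val-AAC alone was the other sum called, with a log2 fold change of 2.49 ± 0.62. It reached the read minimum in no control library, so that it had to differ and its call is no support, and counting sequences with at most 1 mismatch gave 1.49 and an adjusted p of 0.172.

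Val-TAC alone had a limma log2 fold change of 1.45 ± 0.67 with an adjusted p of 0.162, and the shared class 0.39 ± 0.61 with 0.735. Scaling by library totals put Val-TAC past the threshold (2.61, adjusted p = 0.00226), as did leaving out experimental library 1 (2.03, adjusted p = 0.0114). Its log2 fold change was 0.59 without control library 1. The shared class also passed with library totals, at 1.63 and an adjusted p of 0.0219. The median over all 29 sums was 0.31 under TMM, 0.14 under median-of-ratios scaling and 1.58 under library totals, and the shared class stood at 0.39, 0.15 and 1.63 under the same scalings. When each sum was tested on its own spread, with no spread borrowed from other sums, limma called 0 of the 29 sums higher and 3.45% of them lower. An unadjusted p under 0.05 was found for 6 of these sums. The adjusted p was then 0.112 for Val-CAC alone.

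The gene copies that held nearly all reads of the Val-CAC class differed in the same direction. Sequences of Val-CAC-1 and Val-CAC-2, which cannot be separated, had 956, 1089 and 297 reads in experimental libraries and 13, 16 and 3 in control libraries. Sequences of Val-CAC-3 alone had 64, 94 and 66 reads in experimental libraries and 0, 1 and 0 in control libraries, a pooled ratio of 77.1 with a wide counting interval of 13.7 to 3059. Sequences of Val-AAC-2 alone had 52, 18 and 39 reads in experimental libraries and 2, 1 and 0 in control libraries, a pooled ratio of 12.5 with an interval of 4.17 to 61.6. The experimental libraries were deeper, but in all 3 cases each was also above every control library in share of tRNA-aligned reads. Such separation was common among the anticodon sums (55.2%), and it was not counted for gene copies of other tRNAs. Nearly every read of the Val-TAC class came from Val-TAC-1, with 97, 259 and 142 reads in experimental libraries and 5, 11 and 8 in control libraries. Within the shared class, the 13 sequences that match Val-AAC-1, Val-CAC-1 and Val-CAC-2 alone, and so run past the differences at positions 26 and 27, had 1194, 552 and 907 reads in experimental libraries and 39, 32 and 15 in control libraries, 13.2-fold higher in mean share and 7.18-fold without experimental library 1. The 23 shorter ones that match Val-AAC-2 and Val-CAC-3 as well had 1533, 690 and 1282 reads in experimental libraries and 416, 127 and 110 in control libraries, 2.19-fold higher in mean share. Their groups overlapped in share, control library 1 lying above experimental libraries 2 and 3, and the fold was 1.23 without experimental library 1 and 3.59 without control library 1. Val-CAC-4 had 2 reads in the experimental libraries and 2 in the control libraries, a mean share 0.372 of that in control, on too few reads to compare.

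The fragments also ended at different places. Over all libraries, the 2 positions with the most ends were 34, the first anticodon base, and 23, which lies 11 bases before it. Of the valine 5' reads, 25.6%, 51.3% and 14.5% ended at position 34 in experimental libraries, against 1.68%, 8.95% and 2.17% in control libraries. The control values rest on 8, 17 and 3 reads. Ends at position 23 took 34.1%, 13.3% and 39.7% in experimental libraries, against 77.3%, 45.3% and 49.3% in control libraries. The experimental libraries were thus all higher at position 34 and all lower at position 23. The ratio of ends at 34 to ends at 23 was, on the log2 scale, -0.41, 1.94 and -1.46 in experimental libraries and -5.52, -2.34 and -4.50 in control libraries, a difference of 4.15 (two-sided exact permutation p = 0.1).

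**Figure D2:**
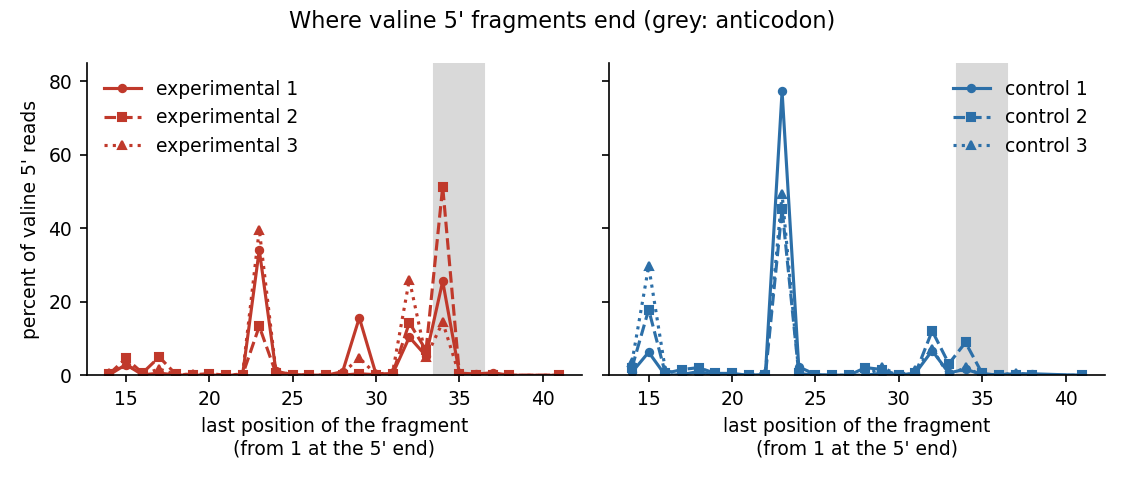
Percent of valine 5' reads that end at each position from the 5' end, with 1 line per library, experimental in the left panel and control in the right panel; the grey band marks the anticodon. Position 34 takes 14.5% to 51.3% of the reads in experimental libraries and 1.68% to 8.95% in control libraries, while position 23 takes 45.3% to 77.3% in control libraries.

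Less frequent ends differed too. Ends at position 15 took 2.94%, 4.60% and 3.08% in experimental libraries, against 6.30%, 17.9% and 29.7% in control libraries. Ends at position 33 took 5.29%, 6.81% and 4.93% in experimental libraries, against 0.630%, 3.16% and 0% in control libraries. Ends at position 32 overlapped between the groups, at 10.4%, 14.3% and 26.1% in experimental and 6.72%, 12.1% and 7.25% in control libraries. Of the 26 end positions seen, 10 took enough reads to be tested, and at 6 of them the groups did not overlap: 14, 15, 18 and 23 were lower in experimental libraries, and 33 and 34 were higher. Each had p = 0.1 and an adjusted p of 0.167 in the exact permutation test. Shares within a library add up to the whole, so these positions are not independent of each other. How often single end positions separated in other families was not counted.

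Counted from the first anticodon base, the mean end lay at -5.74, -3.99 and -6.53 bases in experimental libraries, against -10.5, -10.2 and -12.6 bases in control libraries. The experimental ends were nearer the anticodon by 5.68 bases (two-sided exact permutation p = 0.1), and by 4.93 to 6.23 bases with each library left out in turn. Within the shared class, which by its definition holds no end at position 34, the mean end was still 3.36 bases nearer the anticodon in experimental libraries (exact permutation p = 0.1). Within Val-CAC alone the groups overlapped (exact permutation p = 0.7), and most of its reads, those of Val-CAC-1 and Val-CAC-2, could be assigned only because they reached position 34. In the deposited type names, tiRNA-5 made up 25.6%, 51.3% and 14.4% of the valine 5' reads in experimental libraries and 1.68%, 8.95% and 2.17% in control libraries. The type tRF-5a made up 3.14%, 5.32% and 3.73% in experimental libraries and 7.14%, 18.9% and 34.1% in control libraries. Mean ends also separated the groups in glycine, lysine and glutamic acid (exact permutation p = 0.1 each). The experimental minus control difference was 0.654 bases in glycine, 0.605 in lysine and -2.57 in glutamic acid. In glycine, ends at position 34 or later were 17.5 percentage points higher in experimental libraries, without overlap. Such ends overlapped in glutamic acid and lysine, with differences of -22.1 and 23.8 percentage points, against 26.3 in valine. The shift to later ends was thus not limited to valine. In mean end it was smaller in glycine and lysine, but their control means, -1.93 and -1.06 bases, already lay near the anticodon.

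Ends at position 29 were uneven among the experimental libraries. They took 15.7%, 0.428% and 4.75% of the valine 5' reads in experimental libraries and 0.630%, 1.58% and 2.17% in control libraries. The same order of the experimental libraries, 1 above 3 above 2, was found 5 bases before the anticodon in other families. In glycine the values were 10.7%, 0.350% and 2.49% in experimental libraries, against 1.55%, 0.864% and 3.25% in control libraries. In glutamic acid they were 27.0%, 3.86% and 15.9%, against 2.88%, 1.73% and 4.56% in control libraries.

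Short fragments were frequent among valine 5' reads and rare among those of glycine, glutamic acid and lysine, the families set beside them. Other families were not examined for short fragments. Ends 9 or more bases before the anticodon took 39.6%, 25.7% and 47.5% of valine 5' reads in experimental libraries and 88.4%, 71.1% and 86.2% in control libraries. In glycine, glutamic acid and lysine they took under 1% of the 5' reads in every library. Within each library the valine share was thus above that of all 3 other families, in 6 of 6 libraries, and no further test was made.

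Most experimental fragments began at the first base. Starts at position 1 made up 90.5%, 93.1% and 89.5% of valine 5' reads in experimental libraries, against 60.5%, 67.9% and 60.1% in control libraries (two-sided exact permutation p = 0.1). Fragments that began at position 2 or 3 ended almost always at position 23, in 94.1%, 88.1% and 95.9% of their reads in experimental libraries and 97.9%, 88.5% and 96.4% in control libraries. Of the fragments that began at position 1, 27.8%, 7.82% and 33.1% ended at position 23 in experimental libraries and 63.9%, 24.8% and 18.1% in control libraries. The groups thus separated in starts, but the share of ends at position 23 overlapped between them within either kind of start. Start positions were not counted in other tRNA families.

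Single sequences were tested with limma voom over the whole table. Of 2226 sequences with enough reads, 18.7% were called higher and 7.64% lower in experimental libraries at an adjusted p under 0.05 (Benjamini-Hochberg). Of the 96 valine sequences, 84 had too few reads to be tested and 12 were tested. The 12 held 84.5% of the valine 5' reads in experimental and 89.4% in control libraries. Limma called 8 of the 12 higher and 0 lower. In TMM-scaled CPM the groups were apart with experimental higher in 26.1% of all tested sequences and with experimental lower in 14.6%, and in shares of tRNA-aligned reads in 24% and 16.8%. In 5 of the 8 called sequences no control library reached the read minimum, so these had to differ and their calls are no support. They are given by their reads and fold changes alone. Of the 96 sequences, 55 had no control read, 4 had no experimental read, and 56 had under 10 reads in all. When each sequence was tested on its own spread, limma called 0 of the 12 and 0.674% of all sequences higher, against 0.359% of all sequences lower, although 590 of the 2226 had an unadjusted p under 0.05.

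The sequences that carried these values are printed with the anticodon base in capitals where they reach it.
Val-CAC 1 to 34: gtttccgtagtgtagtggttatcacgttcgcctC
Val-AAC 1 to 34: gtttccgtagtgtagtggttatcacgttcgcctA
Val-TAC 1 to 34: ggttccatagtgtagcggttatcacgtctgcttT
shared 1 to 33: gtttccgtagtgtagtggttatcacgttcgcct
shared 1 to 32: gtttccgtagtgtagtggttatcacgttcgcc
shared 1 to 29: gtttccgtagtgtagtggttatcacgttc
shared 1 to 23: gtttccgtagtgtagtggttatc
shared 1 to 15: gtttccgtagtgtag

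The Val-CAC fragment of positions 1 to 34 had the highest mean of the valine sequences in experimental libraries. In experimental libraries 1 and 3, however, the shared fragment of positions 1 to 23 had more reads. The Val-CAC fragment had 896, 1075 and 290 reads in experimental libraries and 8, 15 and 2 in control libraries, and the groups did not overlap. It averaged 578 ± 434 RPM (reads scaled to 1000000 tRNA-aligned reads per library) in experimental and 13.7 ± 7.01 in control libraries (SD, n = 3 each), 42.2-fold higher. Its limma log2 fold change was 5.26 ± 0.96 with an adjusted p of 2.06e-06, and 0.0849 on its own spread. It was 4.52 without control library 3, 4.61 without experimental library 1 and 6.02 without experimental library 3, and the fold of mean RPM was 26.0 without experimental library 1.

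The fragments of the other anticodons that end at the same position had a larger share of tRNA-aligned reads in every experimental library than in any control library. The Val-AAC fragment of positions 1 to 34 had 53, 89 and 24 reads in experimental libraries and 0, 0 and 0 in control libraries, at least 21.3-fold higher when the control group as a whole is set to 3 reads. It was assigned to Val-AAC by its last base alone. On the same stretch a mismatched T was the last base 278 times in experimental libraries, against 166 times for A. Whether that last base comes from the tRNA was not tested. The Val-TAC fragment of positions 1 to 34 had 35, 210 and 70 reads in experimental libraries and 0, 1 and 1 in control libraries, a pooled ratio of 54.2 with a counting interval of 14.9 to 450. Its limma log2 fold change was 5.01 ± 0.99, and 4.18 without experimental library 2. Neither fragment reached the read minimum in a control library.

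Of the shared fragments that stop just short of the anticodon, that of positions 1 to 32 rose in the limma fit with enough control reads to be tested. The fragment of positions 1 to 33 had 187, 170 and 109 reads in experimental libraries and 3, 6 and 0 in control libraries, with a limma log2 fold change of 4.80 ± 0.98, and 3.67 without control library 3. No control library reached the read minimum for it. Positions 1 to 32 had 385, 361 and 650 reads in experimental libraries and 30, 20 and 10 in control libraries, with a limma log2 fold change of 3.32 ± 0.91 (adjusted p = 0.0024, and 0.0527 on its own spread). The groups did not overlap for either. Positions 1 to 29 had 575, 9 and 116 reads in experimental libraries and 3, 3 and 3 in control libraries. This last fragment fell below the read minimum and was not tested. Its groups overlapped in share, experimental library 2 lying below control libraries 1 and 3, and experimental library 1 held most of its reads.

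Shared fragments that ended at position 15 or 23 gave no difference that held under every alternative. The fragment of positions 1 to 23 had 993, 204 and 813 reads in experimental libraries and 183, 32 and 15 in control libraries, and the groups overlapped. Its limma log2 fold change of 2.33 ± 0.89 had an adjusted p of 0.0366, and 0.284 on its own spread. The call was lost with median-of-ratios factors (adjusted p = 0.0582), with library totals (0.197), and without experimental library 1 (0.247), experimental library 3 (0.123), control library 2 (0.199) or control library 3 (0.335). Its log2 fold change was 3.34 without control library 1.

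The same fragment starting at position 2 had 94, 116 and 142 reads in experimental libraries and 107, 27 and 42 in control libraries (limma log2 fold change -0.05, adjusted p = 0.971). Starting at position 3 it had 257, 54 and 133 reads in experimental libraries and 77, 27 and 11 in control libraries (0.80, adjusted p = 0.535). Ending at position 15, the fragment had 92, 105 and 65 reads in experimental libraries and 29, 27 and 33 in control libraries (0.26, adjusted p = 0.855). These 3 sequences did not pass the test, their groups overlapped, and none of the tests shows that they were equal.

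Outside the rule that chose these sequences, 2 others were called, named after their values were seen. The shared fragment of positions 1 to 17 had 21, 135 and 47 reads in experimental libraries and 1, 3 and 0 in control libraries (limma log2 fold change 3.95), and its call was lost without control library 3 (adjusted p = 0.0655). The fold change was 3.13 without experimental library 2. The Val-CAC-3 fragment of positions 1 to 32 had 15, 24 and 46 reads in experimental libraries and 0, 0 and 0 in control libraries. No control library reached the read minimum for either.

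**Figure D3:**
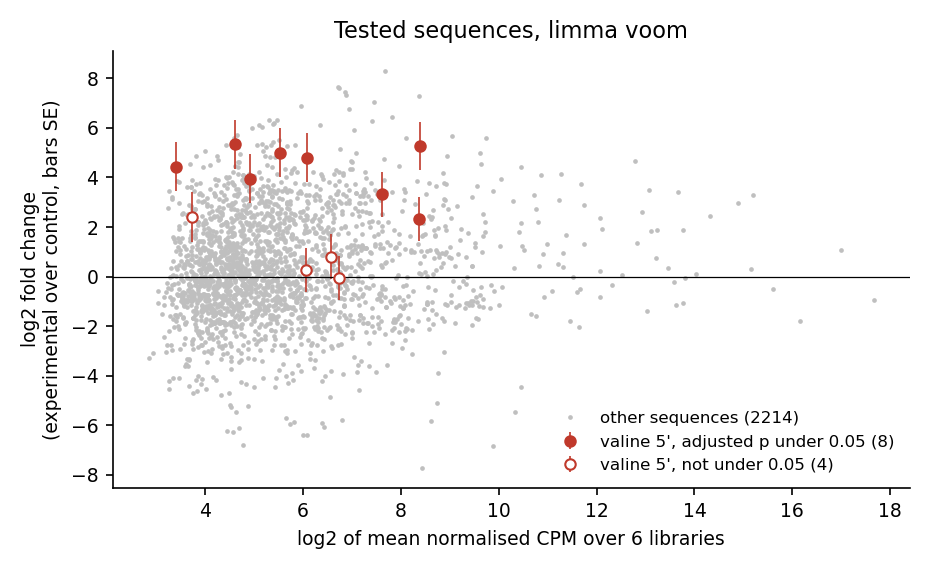
Log2 fold change (experimental over control, limma voom, bars are SE) against the log2 of mean normalised CPM over 6 libraries, with 1 point per tested sequence. The 8 called valine sequences, filled, lie between 2.33 and 5.33, where 5.33 is the fitted value of a sequence with no control read and is no bound, and the 4 others, open, lie between -0.05 and 2.42.

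The base read at position 34 was also followed, because the valine anticodons differ there. Among fragments of the common 1 to 33 stretch that ended at position 34, the Val-CAC base was read 2261 times in experimental and 25 times in control libraries, and the Val-AAC base 166 and 0 times. The base that inosine gives, A34G relative to Val-AAC-1, was read 35 times in experimental and 2 times in control libraries. Among reads that went on past position 34, the Val-CAC base was read 189 times in experimental and 15 times in control libraries. There the unchanged Val-AAC base was read 1 time and 0 times, while A34G, which is also C34G relative to Val-CAC-1, was read 59 and 7 times.

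The order of these 2 readings differed with where the read stopped: the unchanged Val-AAC base outnumbered A34G in experimental fragments that ended on it, and A34G outnumbered the unchanged base in longer reads. The change C34T relative to Val-CAC-1 was read 278 times in experimental and 2 times in control libraries as a last base, and 0 times in either group in longer reads. What gives a mismatch at the last base was not tested. None of the mismatched reads is counted among the 96 sequences.

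Which end of the valine tRNA was read also differed. Of the exact reads that matched valine tRNAs alone, 5' fragments made up 81.4%, 72.5% and 69.9% in experimental libraries, against 14.8%, 25.8% and 28.0% in control libraries. Fragments that ended in the last 4 bases, at the 3' end, made up 9.04%, 17.7% and 20.1% in experimental libraries, against 78.2%, 68.5% and 63.8% in control libraries. These 3' fragments had 501, 355 and 425 RPM in experimental libraries and 4560, 681 and 991 in control libraries, 0.206 of the control mean (two-sided exact permutation p = 0.1). Control library 1 carried much of that mean, and without it the ratio was 0.511. The experimental libraries were thus above all controls at the 5' end and below all controls at the 3' end, while internal fragments overlapped in RPM (exact permutation p = 0.5). Higher 5' shares without overlap were common, in 55.2% of the 29 anticodon sums. The 5' and 3' parts were not compared in other tRNA families, so whether this pattern is particular to valine was not tested. In bulk RNA, more fragments per cell and more cells that hold them cannot be told apart.

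**Figure D4:**
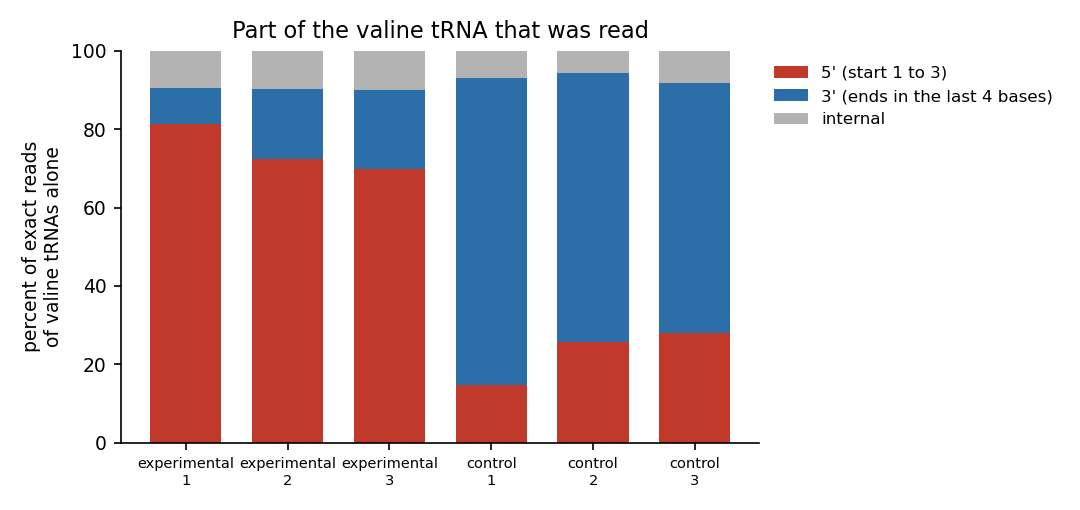
Stacked bars give the percent of exact reads of valine tRNAs alone that are 5' fragments, 3' fragments or internal, with 1 bar per library. The 5' part takes 69.9% to 81.4% in the 3 experimental libraries and 14.8% to 28.0% in the 3 control libraries.

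Set against other 5' fragments of the same library, valine separated the groups when taken over glycine or glutamic acid, and overlapped when taken over lysine. The log2 ratio of valine to glycine 5' reads was -6.67, -8.49 and -8.57 in experimental libraries and -9.42, -11.1 and -10.2 in control libraries. The groups did not overlap, and the difference was 2.35 (two-sided exact permutation p = 0.1, adjusted p = 0.15 over 3 ratios), between 1.73 and 2.77 with each library left out in turn. The difference in the valine to glutamic acid ratio was 1.65, also without overlap and with an adjusted p of 0.15 (exact permutation). The log2 ratio of valine to lysine 5' reads was -3.06, -5.64 and -4.34 in experimental libraries and -3.26, -5.11 and -3.79 in control libraries, and it overlapped (difference -0.29, exact permutation p = 0.8). The mean share of lysine 5' fragments was itself 6.05-fold higher in experimental libraries, against 1.60-fold for glutamic acid and 0.913-fold for glycine. The log2 ratio of Val-CAC alone to Val-AAC alone differed by 0.59 with overlap (exact permutation p = 0.2), and by 1.37 with at most 1 mismatch (exact permutation p = 0.1).

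**Figure D5:**
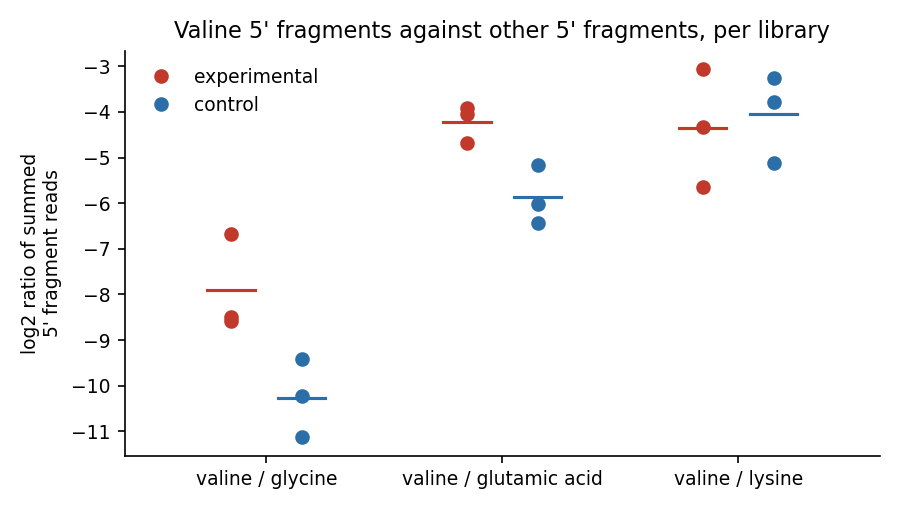
Log2 ratio of summed valine 5' reads to summed glycine, glutamic acid and lysine 5' reads, with 1 point per library and a bar at the group mean. Experimental libraries lie above control libraries against glycine and glutamic acid, and the groups overlap against lysine.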

How the data were processed

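Small RNA libraries of rat muscle were made with the NEBNext small RNA kit and sequenced on an Illumina NextSeq, per the labels' protocols. The deposited table of the whole series gives, per tRNA, each aligned sequence with its type, mismatches and read counts in 6 libraries. These counts were used as the authors deposited them, with each distinct sequence counted once and other units not used. The aligner is not given in the sources used here, and mm9 is named by the submitters' processing notes although the samples are rat. The table carries description lines between the count rows, so its columns are recorded under another unit than counts. Deposited tables per library were not used.

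Groups followed the sample titles. Two-sided exact permutation tests compared the shares (scipy 1.17.1, numpy 2.4.6, Python 3.11.15). Sequences and the 29 sums were fitted with limma 3.58.1 (voom, R 4.3.3), TMM factors and Benjamini-Hochberg adjustment. Sequences needed about 10 counts per median-sized library in 3 libraries and 15 in all, a normalised minimum. Calls had an adjusted p under 0.05. The variance prior had 12.1 degrees of freedom for sums and was infinite for sequences, so "own spread" tests used none. Alternatives were median-of-ratios factors, library totals, no filter, sequences with at most 1 mismatch, starts at position 1 alone, the median end, limma trend on log2 CPM with a pseudocount of 1, own spread, a replicate block and each library left out.

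Named sequences were the 8 most abundant by mean normalised count, the most abundant of each anticodon class, and the 3 called with the largest rise and with the largest fall. Members and lists were chosen with earlier results of these data known.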

Additional observations from a re-analysis of the deposited data

How the results depend on the processing

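The number of valine sequences called higher was 8, and it became 19 with no read minimum (sequences with almost no control reads then enter), 0 on each sequence's own spread, and 6 to 9 with each library left out in turn. The number of valine sums called was 2, and it became 4 with library totals, 1 with at most 1 mismatch, 0 on their own spread, and 2 to 3 with each library left out. The correlation of deviations from the group mean was -0.31, -0.05 and 0.13 for same-numbered libraries, and between -0.41 and 0.38 for differently numbered ones. Deviations within a group of 3 are bound to each other, so these values cannot decide whether the replicate numbers pair the samples. With a replicate block limma called 7 sequences and 2 sums, and the share difference stayed 0.196 percentage points (exact sign-flip permutation p = 0.25, the smallest 3 pairs can give). The shared fragment of positions 1 to 23 was the sequence that lost its call under the block (adjusted p = 0.065). Log2 fold changes turned sign only for 3 sequences that were not called in the main comparison. The fragment of positions 1 to 15 gave -0.00996 with library totals and -0.21 to 0.67 with each library left out. That of positions 2 to 23 gave 0.38 with no read minimum and -0.77 to 0.53 with each library left out, and that of positions 3 to 23 gave -0.0888 to 1.52. The cause of these changes was not tested. The differences in share, mean end and the 2 ratios of valine to glycine and of Val-CAC to Val-AAC kept their direction under each alternative run on them. Their exact p cannot go below 0.1, so its place above 0.05 shows no stability. Folds of mean shares with each library left out, and the background of separated groups on the scale of shares, were added after seeing the data. Control libraries held 138 to 476 valine 5' reads each, so control values for single sequences and rare ends rest on few reads.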
